A study of Mus musculus with 6 samples.

Results

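Genes of cytokine signalling, the interferon response, innate sensing and antigen presentation were followed in organoids of the mouse small intestine with and without Smarcad1, which encodes a chromatin remodelling ATPase. They were taken from a deposited table of 1420 genes by the start of the gene symbol: Tlr, Nlr, Naip, Nod1, Nod2, Clec, Cd and Il followed by a digit, Cxc, Ccl, Tnf, Ifi, Ifn, Irf, Oas, Isg, Gbp, Irgm, Stat, H2-, Nfkb or Casp. These starts found 40 genes, and 38 were kept after Tlr4 and Clec2g were set aside by the same rule. The rule used no measured value. The table itself did: the authors placed in it only genes that differed between these same libraries by their own test, so the direction and size of each change are described here and are not independent evidence that a gene changed.

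The study asked how loss of Smarcad1 alters gene expression in epithelium kept away from microbes and immune cells. Organoids are closed epithelial structures grown from crypts in a gel, here in medium with EGF, Noggin and R-spondin. About 600 organoids per condition were harvested at day 5, and poly(A) RNA was read in 3 wild-type (WT) and 3 Smarcad1 knockout (KO) libraries of C57BL/6 mice. The sources disagree on the deletion: the genotype label of the KO samples names Vil-Cre, active in intestinal epithelium, whereas the growth protocol and the study's methods for the organoids name ZP3-cre, active in the oocyte, so that every cell of the mouse would lack the gene, with litter mates as controls. The labels give no age and do not say whether the 3 libraries of a group came from separate mice, so the p-values measure the spread between these libraries, which may be technical.

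As background, MHC class I molecules show peptides from inside the cell to T cells, and the non-classical ones of the H2-Q, H2-T and H2-M regions are read by natural killer cells and unconventional T cells, many of which lie within the gut epithelium. Interferons act on receptors at the cell surface, and STAT and IRF factors carry the signal to the nucleus, where they bind the interferon-stimulated response element (ISRE) of genes that block viruses. Epithelial cells also hold sensors of the NLR family and inflammatory caspases, and they release chemokines that place lymphocytes along the mucosa.

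Smarcad1 was measured at 105, 94.7 and 96.3 RPM (reads per 1e+06 reads of the library) in WT replicates 1 to 3 and at 21.7, 21.3 and 24.03 RPM in KO replicates 1 to 3, a log2 change of -2.14 ± 0.10 (SE, n = 3 per group, limma adjusted p = 5.59e-05). The KO libraries thus lay below the WT libraries, in the direction of their labels. Library depth, inferred from the smallest step between values, ran from 1.24e+07 to 1.57e+07 reads, and a floor of 3 reads was between 0.192 and 0.242 RPM. The 38 genes held 0.247% to 0.255% of all reads in WT and 0.258% to 0.291% in KO.

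Of the 38 genes, 28 were higher and 10 lower in KO. All 38 passed the threshold (limma on log2(RPM + 0.1), Benjamini-Hochberg adjusted p under 0.05), which over the whole table was passed upwards by 52.5% and downwards by 47.4% of genes. In all 38 the KO values lay entirely on one side of the WT values, as in 98.5% of the table, and the exact permutation p was then 0.1 in a two-sided test, which is as low as 3 against 3 can go. A log2 change of at least 1 was reached upwards by 16 genes and downwards by 3, that is by 42.1% and 7.89% of the 38, where the table holds 19.0% and 8.10%. The median log2 change of the 38 genes was 0.85, beside 0.38 over the table, and the median size regardless of direction was 1.00 beside 0.64. The 38 genes were also less abundant, with a median level over the 6 libraries of 30.6 RPM beside 63.6 RPM over the table. Whether their larger changes go with their lower abundance was not tested. Cd3eap was taken in by its symbol alone and encodes a subunit of RNA polymerase I. It was measured at 40.4, 34.8 and 45.3 RPM in WT and 73.7, 61.9 and 45.6 RPM in KO, a log2 change of 0.57 ± 0.20 (SE, limma adjusted p = 0.0275), and its lowest KO value was next to its highest WT value. Its limma adjusted p rose above 0.05 on removal of WT replicate 1 (0.0618), WT replicate 2 (0.0879), KO replicate 1 (0.0717) or KO replicate 2 (0.0755), and its log2 change was 0.23 after removal of a trend with transcript length.

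**Figure D1:**
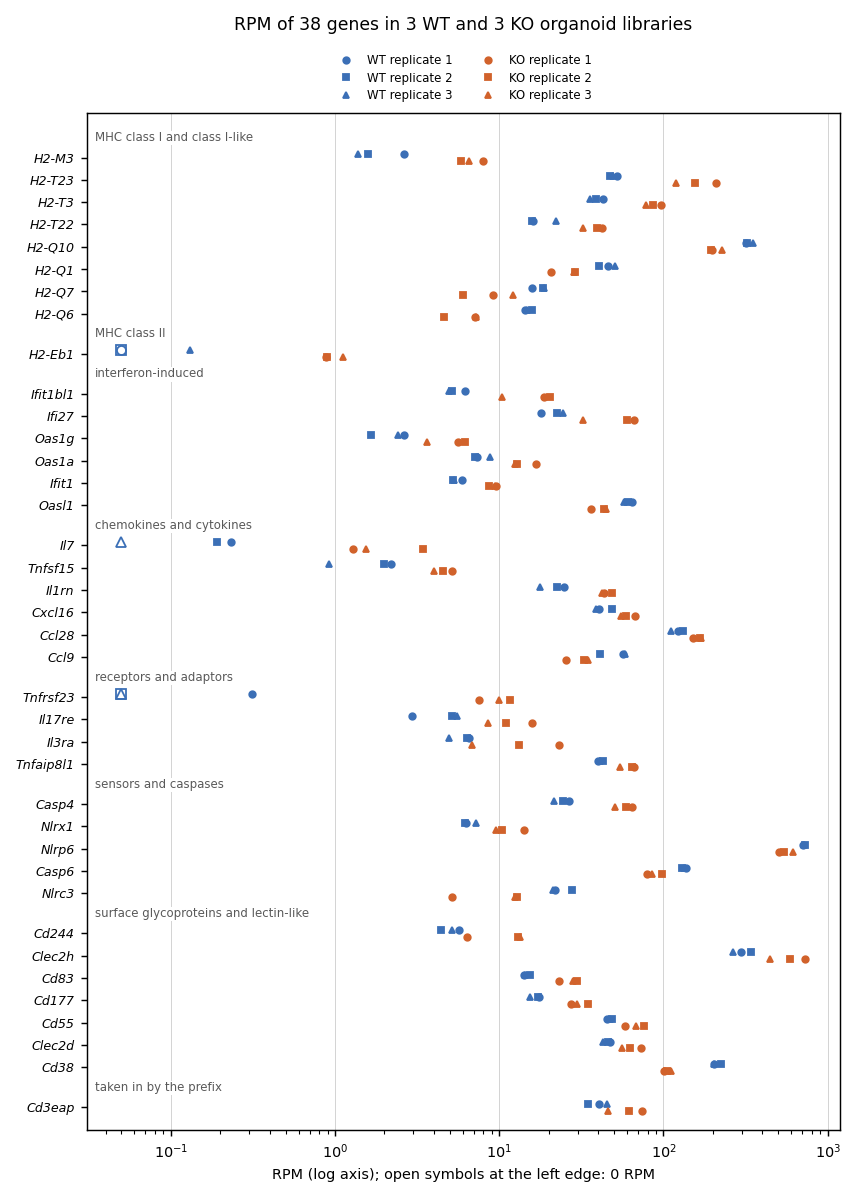
RPM (log axis) of each of the 38 genes in the 3 WT (blue) and 3 KO (orange) libraries, grouped by role, with circles, squares and triangles for replicates 1, 2 and 3 and open symbols for 0 RPM. In every row the orange symbols lie on one side of the blue ones, with Il3ra, Cd244 and Cd3eap showing the narrowest gaps relative to their KO spread.

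Markers of epithelial cell types moved with the groups. As nearly every listed gene was called, 52.5% of the table higher and 47.4% lower, being called adds nothing to being listed. Of 20 markers of Paneth cells, the antimicrobial cells of the crypt base, 12 were listed and all 12 were called higher in KO, with a summed level of 9208 to 10765 RPM in WT and 19579 to 28449 RPM in KO. Of 9 goblet cell markers 3 were listed, all higher, and of 12 enterocyte markers 6 were listed, all lower, their sum running from 12290.5 to 13845 RPM in WT and from 7673 to 8311 RPM in KO. Enteroendocrine, tuft and stem cells had 1 listed marker each, of 10, 8 and 7, which was higher, lower and higher in KO, respectively. Of 24 markers of immune cells 2 were listed, Itgam and Lyz2 (named after their values were seen), and they were called in opposite directions. Itgam was at 8.55, 10.7 and 9.33 RPM in WT and 2.82, 5.83 and 4.55 RPM in KO, and Lyz2 at 2.41, 1.79 and 1.31 RPM in WT and 6.04, 5.83 and 3.71 RPM in KO, with log2 changes of -1.15 and 1.46 (limma adjusted p = 0.00755 and 0.00426). Their sum was 10.6 to 12.5 RPM in WT and 8.27 to 11.7 RPM in KO, and none of 8 markers of fibroblasts and endothelium was listed. Of 9 general epithelial markers 1 was listed, at 975 to 1029 RPM in WT and 1303 to 1923 RPM in KO. The other markers were not analysed here, so that the table can neither show nor bound the presence of immune cells. In bulk RNA a change in the number of cells of a type and a change in RNA per cell cannot be told apart, and the part of cell composition in the changes of the 38 genes was not tested.

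Per length of their annotated exons, Nlrp6 and Clec2h were the 2 most abundant of the 38 genes in WT, with 141 ± 2.70 and 111 ± 13.96 RPM per kb (mean ± SD, n = 3). They were followed by H2-Q10 with 76.1 ± 3.73 RPM per kb, Cd38 with 53.7 ± 2.98 RPM per kb and Clec2d with 37.5 ± 1.77 RPM per kb. In KO the order at the top differed. Clec2h came first with 218 ± 52.3 RPM per kb and Nlrp6 second with 109 ± 10.8 RPM per kb. H2-T23 stood at 55.7 ± 15.5, Clec2d at 52.6 ± 6.88 and H2-Q10 at 47.6 ± 4.11 RPM per kb, levels whose spreads overlapped. At the low end in both groups were H2-Eb1 and Il7, with WT means of 0.0224 ± 0.0388 and 0.0250 ± 0.0220 RPM per kb.

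The 8 MHC class I and class I-like genes of the set split by position on chromosome 17. No classical class I gene was listed, and class I genes outside the table were not analysed here. All 4 H2-Q genes in the set were lower in KO and all 4 genes of the H2-T and H2-M regions were higher. The H2-Q genes lie within 154 kb, from H2-Q1 (chr17:35320405-35325099, plus strand, GRCm38) through H2-Q6 (chr17:35424850-35430055) and H2-Q7 (chr17:35439155-35443773) to H2-Q10 (chr17:35470089-35474563). A gap of 555 kb separates them from H2-T23 (chr17:36029773-36032855, minus strand) and H2-T22 (chr17:36037128-36042747, minus strand). H2-T3 (chr17:36185572-36190287, minus strand) and H2-M3 (chr17:37270220-37274484, plus strand) lie further along. No other listed gene falls between H2-Q1 and H2-Q10. The stretch from H2-T23 to H2-T3 holds or is touched by 4 other listed genes, 2 of them above and 2 below WT. Over the whole span from H2-Q1 to H2-M3 there are 6 other listed genes, 4 above and 2 below WT. These include Cchcr1 and Nrm, which lie outside both stretches.

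H2-Q10, which encodes a secreted class I molecule, was by far the most abundant of the H2-Q genes, at 319, 324 and 349 RPM in WT and 198, 195 and 227 RPM in KO. Its log2 change was -0.68 ± 0.11 (SE, limma adjusted p = 0.00278), so that 62.5% of the WT mean remained. H2-Q1 was measured at 45.7, 40.7 and 50.6 RPM in WT and 20.8, 29.1 and 28.7 RPM in KO, a log2 change of -0.81 ± 0.17 (SE, limma adjusted p = 0.0057). H2-Q6 and H2-Q7 belong to the genes of the Qa-2 antigen, a membrane-anchored class I-like molecule. H2-Q6 fell from 14.3, 15.8 and 14.8 RPM in WT to 7.08, 4.60 and 7.22 RPM in KO, a log2 change of -1.26 ± 0.19 (SE, limma adjusted p = 0.00238). H2-Q7 was at 15.9, 18.6 and 18.8 RPM in WT and 9.10, 6.04 and 12.1 RPM in KO, a log2 change of -1.01 ± 0.25 (SE, limma adjusted p = 0.00927). The KO values of H2-Q7 differed by a factor of 2.00 between the lowest and the highest library, yet none reached the WT range. These genes share sequence with other genes: 32.0% of the 50-base words of H2-Q6 transcripts, 27.1% of those of H2-Q7, 19.7% of those of H2-Q10 and 16.1% of those of H2-Q1 also occur in transcripts of other genes. As the authors kept uniquely mapped reads, the split of reads among the H2-Q genes is uncertain.

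H2-T23, which encodes Qa-1, a ligand of inhibitory receptors on natural killer cells, was measured at 51.8, 47.1 and 49.5 RPM in WT and at 208, 156 and 119 RPM in KO. Its log2 change was 1.66 ± 0.20 (SE, limma adjusted p = 0.00138), the KO mean being 3.26 times the WT mean. All 3 KO values were well above the highest WT value, and they spread far more than the WT values, with a coefficient of variation of 27.8% against 4.82%. Transcripts of other genes hold 15.0% of the 50-base words of H2-T23, so part of its reads may be misplaced or lost. H2-T3 encodes the thymus leukaemia antigen, a class I-like molecule of gut epithelium that binds CD8. It was at 43.1, 39.02 and 35.4 RPM in WT and 96.2, 86.1 and 78.1 RPM in KO, a log2 change of 1.15 ± 0.13 (SE, limma adjusted p = 0.00101). H2-T22, a ligand of some gamma delta T cell receptors, was at 16.1, 15.8 and 22.2 RPM in WT and 41.9, 39.4 and 32.2 RPM in KO, a log2 change of 1.07 ± 0.18 (SE, limma adjusted p = 0.00309). Of its 50-base words 35.8% occur in other genes, chiefly H2-T10, and 29.4% of its exon bases lie under A930015D03Rik on the other strand (chr17:35994453-36038435, plus strand, named after its values were seen), with no source stating whether the counting used strand. A930015D03Rik is itself a listed gene and went the opposite way, from 4.35, 5.62 and 5.16 RPM in WT to 1.29, 0.343 and 0.210 RPM in KO, a log2 change of -3.15 ± 0.52 (SE, limma adjusted p = 0.00316). H2-M3, which presents formylated peptides of bacterial and mitochondrial origin, was low at 2.64, 1.60 and 1.37 RPM in WT and reached 7.97, 5.83 and 6.59 RPM in KO, a log2 change of 1.85 ± 0.25 (SE, limma adjusted p = 0.00185). Only 0.576% of its words are shared with another gene. After removal of a trend with transcript length, the log2 changes of H2-T23, H2-T3, H2-T22 and H2-M3 were 1.43, 0.82, 0.95 and 1.32. Those of H2-Q1, H2-Q6, H2-Q7 and H2-Q10 were then -0.99, -1.64, -1.05 and -0.71.

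Summed over the 4 H2-Q genes, the level ran from 395 to 434 RPM in the WT libraries and from 235 to 275 RPM in the KO libraries. Summed over H2-T22, H2-T23, H2-T3 and H2-M3, it ran from 104 to 114 RPM in WT and from 236 to 354 RPM in KO. The total of the 8 genes was 502 to 542 RPM in WT and 511 to 589 RPM in KO, so that the groups overlapped in the total. That they were apart in each single gene holds for 98.5% of the table and says nothing particular of these 8.

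**Figure D2:**
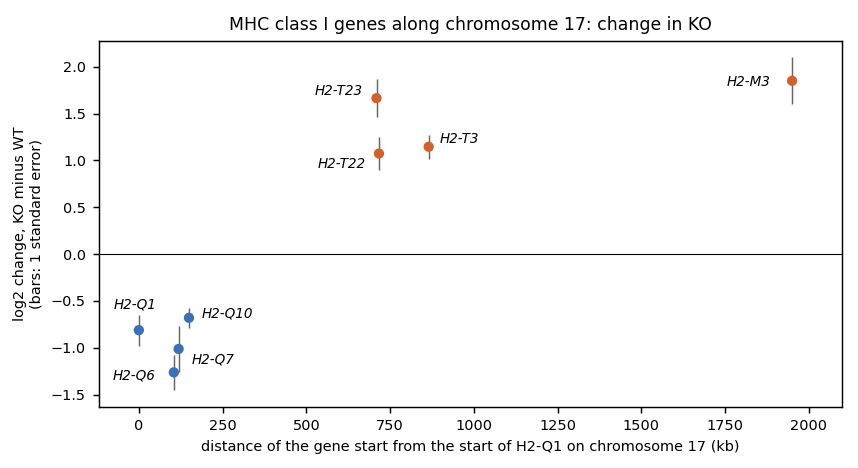
Log2 change (KO minus WT, of log2(RPM + 0.1), bars 1 SE) of the 8 class I genes against the distance of their start from that of H2-Q1 on chromosome 17 in kb, 3 libraries per group. The 4 genes of the H2-Q cluster lie below 0, between -1.26 and -0.68, and the 4 genes further along lie above 0, between 1.07 and 1.85.

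The promoter windows of the class I genes are shown with the stretch closest to a fixed spelling of the ISRE. Windows of RefSeq (GRCm38.p6, 250 bases before to 50 after each start) were searched on both strands for the ISRE core GAAANNGAAA. H2-T22 and H2-T23 each hold 1 match, and the other H2 genes with a window hold none. Below, the upstream bases around the match, or around the stretch closest to it, are printed in the direction of the gene, with the bases that match the core or its reverse complement in capitals.
H2-T22, chr17:36042894-36042963, minus strand: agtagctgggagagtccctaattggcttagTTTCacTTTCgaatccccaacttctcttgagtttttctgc
H2-T23, chr17:36032806-36032835, minus strand: atcctactgcTTTCtcTTTCataaagacac
H2-T3, chr17:36190258-36190287, minus strand: agaactatagTTTCacTTTttgctctctgt
H2-M3, chr17:37270103-37270172, plus strand: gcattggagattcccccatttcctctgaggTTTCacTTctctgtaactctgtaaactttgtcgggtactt
H2-Q6, chr17:35424668-35424737, plus strand: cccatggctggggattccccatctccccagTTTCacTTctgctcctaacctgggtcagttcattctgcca
H2-Q7, chr17:35439012-35439081, plus strand: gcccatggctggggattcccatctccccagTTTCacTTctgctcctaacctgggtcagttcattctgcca
H2-Q10, chr17:35469904-35469973, plus strand: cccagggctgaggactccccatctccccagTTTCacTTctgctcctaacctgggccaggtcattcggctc
H2-T3 and H2-Eb1 depart from the core at 1 position and H2-M3, H2-Q6, H2-Q7 and H2-Q10 at 2 positions. The stretch TTTCacTTct is the same in H2-M3, which was higher in KO, and in H2-Q6, H2-Q7 and H2-Q10, which were lower. The core searched for is a strict spelling, so a departure from it does not show that an ISRE is absent. A stretch with at most 1 departure is common, occurring upstream of the start in 31.4% of all RefSeq windows. In H2-T23 and H2-T3 the stretch lies inside the first exon of a longer annotated transcript, and only 30 bases are printed. H2-Q1 has no window in the table used.

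The 1 class II gene of the set, H2-Eb1 (chr17:34305877-34316199, plus strand), encodes a beta chain and lies before the H2-Q cluster. It was at 0, 0 and 0.131 RPM in WT, or 2 reads in all, and at 0.886, 0.892 and 1.12 RPM in KO, or 40 reads. The ratio of KO to WT was 21.3, with an exact 95% counting interval of 5.51 to 182. The KO libraries held 11, 13 and 16 of these reads, and the mean over all 6 libraries was 0.505 RPM.

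Of the 6 interferon-induced genes, 5 were higher in KO and Oasl1 was lower. Ifi27, which encodes a small interferon-induced membrane protein, was at 17.9, 22.4 and 24.5 RPM in WT and 66.6, 59.98 and 32.3 RPM in KO, a log2 change of 1.24 ± 0.29 (SE, limma adjusted p = 0.00813), which became 0.57 (limma adjusted p = 0.0412) when a trend with transcript length was removed. KO replicate 3 was close to the highest WT library. Ifit1, a protein that binds foreign RNA, was at 5.91, 5.24 and 5.29 RPM in WT and 9.50, 8.72 and 9.39 RPM in KO, a log2 change of 0.74 ± 0.10 (SE, limma adjusted p = 0.00191), and its KO values were tightly grouped. Its neighbour and near relative Ifit1bl1 was at 6.22, 5.17 and 4.96 RPM in WT and 18.6, 20.5 and 10.4 RPM in KO, a log2 change of 1.53 ± 0.26 (SE, limma adjusted p = 0.00355). Without the length trend the log2 changes of Ifit1 and Ifit1bl1 were 0.50 and 1.17. Both lie on chromosome 19, at chr19:34640871-34650009 and chr19:34592888-34601968.

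Oas1a and Oas1g, oligoadenylate synthetases that respond to double-stranded RNA, lie side by side on the minus strand of chromosome 5 (chr5:120896256-120907521 and chr5:120876142-120887613). Oas1a was at 7.31, 7.09 and 8.81 RPM in WT and 16.7, 12.8 and 12.4 RPM in KO, a log2 change of 0.84 ± 0.16 (SE, limma adjusted p = 0.00447), or 0.41 (limma adjusted p = 0.0245) without the length trend. Oas1g was at 2.64, 1.66 and 2.41 RPM in WT and 5.64, 6.18 and 3.64 RPM in KO, a log2 change of 1.16 ± 0.25 (SE, limma adjusted p = 0.00662), or 0.75 without the length trend. As 57.6% of the 50-base words of Oas1a also occur in Oas1g, and 54.7% of those of Oas1g in other genes, the 2 values are not separable with certainty. Oasl1 (chr5:114923240-114937915, plus strand), a relative without synthetase activity that dampens the interferon response, was the most abundant of the 6 in WT at 64.3, 60.9 and 57.2 RPM and fell to 36.4, 43.3 and 44.4 RPM in KO, a log2 change of -0.56 ± 0.12 (SE, limma adjusted p = 0.00616), or -0.92 without the length trend. Summed over all 6 genes, the level was 102 to 104 RPM in WT and 113 to 153 RPM in KO.

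The promoters of Ifit1, Ifit1bl1, Oas1a and Oas1g hold the ISRE core, and those of Ifit1, Oas1a and Oas1g hold it at 2 places in the window, which overlap in Oas1a and Oas1g. Capitals mark the core or its reverse complement in the upstream bases, printed in the direction of the gene.
Ifit1, chr19:34640755-34640843, plus strand: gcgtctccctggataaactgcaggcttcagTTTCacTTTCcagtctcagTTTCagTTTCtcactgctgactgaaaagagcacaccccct
Ifit1bl1, chr19:34602033-34602102, minus strand: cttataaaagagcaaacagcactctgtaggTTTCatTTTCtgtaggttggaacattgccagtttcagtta
Oas1a, chr5:120907526-120907575, minus strand: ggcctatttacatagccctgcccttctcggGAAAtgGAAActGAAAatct
Oas1g, chr5:120887614-120887661, minus strand: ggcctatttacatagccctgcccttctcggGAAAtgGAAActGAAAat
Clec2d, chr6:129180396-129180465, plus strand: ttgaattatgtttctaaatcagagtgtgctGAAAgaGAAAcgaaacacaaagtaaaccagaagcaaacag
Clec2d is shown beside them as the remaining gene of the set with a match. In all, 32 of the 38 genes had a window, and 7 of these held the core: the 4 genes named first, H2-T22, H2-T23 and Clec2d. All 7 were higher in KO, out of 23 higher genes with a window, and none of the 9 lower genes held it. Of the 7, Clec2d was not higher once a trend with transcript length was removed (log2 change -0.11, limma adjusted p = 0.25). Among all RefSeq genes with a window 3.99% held it, among listed genes higher in KO 5.68% and among listed genes lower in KO 4.43%. The other motif searched, the STAT-type core TTCNNNGAA, was in the windows of Oas1a, Nlrx1 and H2-M3, 3 of 32, while 9.55% of all RefSeq genes held it. The windows of these genes were chosen with the changes known, and a match of letters is a description and not a measured site. The symbol starts pick out interferon-induced genes, so a high share of matches follows partly from the rule. Oas1a and Oas1g, counted as 2 of the 7, have nearly the same upstream bases. The counts are small, and a part of the core in the changes was not tested. H2-Q1, Cd83, Ifi27, Cxcl16, Il7 and Cd244 had no window.

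Among the 6 chemokine and cytokine genes, 5 were higher in KO and Ccl9 was lower. Ccl28, a mucosal chemokine that draws IgA-secreting cells, was the most abundant at 123, 131 and 111 RPM in WT and 152, 166 and 170.2 RPM in KO, a log2 change of 0.42 ± 0.11 (SE, limma adjusted p = 0.0114). Cxcl16, a membrane-bound chemokine read by CXCR6 on lymphocytes, was at 40.5, 48.4 and 38.8 RPM in WT and 67.4, 59.4 and 54.8 RPM in KO, a log2 change of 0.51 ± 0.13 (SE, limma adjusted p = 0.0117). Its change shrank to 0.29 (limma adjusted p = 0.0735) when a trend with transcript length was removed, and 18.3% of its exon bases lie under Zmynd15 on the other strand. Il1rn, which encodes the antagonist of the interleukin-1 receptor, was at 24.9, 22.5 and 17.7 RPM in WT and 43.6, 48.5 and 41.97 RPM in KO, a log2 change of 1.05 ± 0.15 (SE, limma adjusted p = 0.00217), or 0.79 without the length trend. Tnfsf15, the ligand of the receptor DR3 also known as TL1A, was at 2.18, 1.98 and 0.914 RPM in WT and 5.15, 4.53 and 3.99 RPM in KO, a log2 change of 1.46 ± 0.31 (SE, limma adjusted p = 0.00639). Ccl9, a chemokine for myeloid cells, fell from 56.3, 41.3 and 57.96 RPM in WT to 25.4, 32.7 and 34.6 RPM in KO, a log2 change of -0.74 ± 0.18 (SE, limma adjusted p = 0.00965).

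Il7, a survival factor of lymphocytes, was near the floor in WT. It was at 0.233, 0.192 and 0 RPM there, or 6 reads in all, and at 1.29, 3.43 and 1.54 RPM in KO, or 88 reads. The ratio of KO to WT was 15.6, with an exact 95% counting interval of 6.88 to 43.6 that does not cover the spread between libraries, and the log2 change was 3.23 ± 0.54 (SE, limma adjusted p = 0.00326), or 1.38 with a pseudocount of 1. KO replicate 2 alone held 50 of the 88 reads.

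All 4 receptor and adaptor genes were higher in KO. Tnfrsf23 (chr7:143665809-143685872, minus strand), a decoy receptor for the death ligand TRAIL, showed the largest log2 change of the 38 genes, 5.92 ± 0.56 (SE, limma adjusted p = 0.000563), which was 3.27 with a pseudocount of 1. It was at 0.311, 0 and 0 RPM in WT, or 4 reads in all, and at 7.57, 11.7 and 9.95 RPM in KO, or 406 reads. The ratio of KO to WT was 108, with an exact 95% counting interval of 41.8 to 398. Of its 50-base words 21.8% are shared with Tnfrsf22, a neighbouring gene of the same family. Il17re, the receptor chain for the epithelial cytokine IL-17C, was at 2.95, 5.17 and 5.55 RPM in WT and 15.8, 10.98 and 8.48 RPM in KO, a log2 change of 1.35 ± 0.31 (SE, limma adjusted p = 0.00784). Tnfaip8l1, of a protein family named for its induction by TNF, was at 39.8, 42.9 and 41.2 RPM in WT and 65.7, 64.2 and 54.1 RPM in KO, a log2 change of 0.56 ± 0.11 (SE, limma adjusted p = 0.00545). Il3ra, the specific chain of the interleukin-3 receptor, was at 6.53, 6.32 and 4.96 RPM in WT and 23.2, 13.2 and 6.87 RPM in KO, a log2 change of 1.11 ± 0.41 (SE, limma adjusted p = 0.0339). Its KO values ran over a factor of 3.38, and it kept an adjusted p under 0.05 under removal of only 1 of the 6 libraries, KO replicate 3. Without KO replicate 1 its log2 change was 0.69 (limma adjusted p = 0.0677).

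The 5 sensors and caspases were divided, with 2 higher and 3 lower in KO. Nlrp6 (chr7:140920902-140929192, plus strand), an inflammasome sensor of gut epithelium, was the most abundant of the 38 genes by RPM in WT and fell from 703, 729 and 722 RPM in WT to 506, 543 and 614 RPM in KO. Its log2 change of -0.38 ± 0.11 (SE, limma adjusted p = 0.0149) was the smallest of the 38 in size, and without KO replicate 2 the limma adjusted p was 0.0528. Nlrc3, known as a brake on innate signalling, was at 21.995, 27.8 and 21.3 RPM in WT and 5.15, 12.8 and 12.4 RPM in KO, a log2 change of -1.32 ± 0.35 (SE, limma adjusted p = 0.0123), with KO replicate 1 below the other two. Nlrx1, a mitochondrial member of the family, was at 6.30, 6.20 and 7.24 RPM in WT and 14.1, 10.4 and 9.53 RPM in KO, a log2 change of 0.76 ± 0.17 (SE, limma adjusted p = 0.00704). Casp4, the caspase that binds bacterial lipopolysaccharide inside the cell, was at 26.7, 24.5 and 21.6 RPM in WT and 64.6, 59.5 and 50.9 RPM in KO, a log2 change of 1.26 ± 0.14 (SE, limma adjusted p = 0.000869), or 0.84 without the length trend. Casp6, an executioner caspase, fell from 138, 129 and 133 RPM in WT to 78.8, 98.4 and 84.9 RPM in KO, a log2 change of -0.62 ± 0.12 (SE, limma adjusted p = 0.00447).

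Of the 7 surface glycoproteins and lectin-like genes, 6 were higher in KO. The exception was Cd38, an enzyme that consumes NAD at the cell surface, which fell from 202, 222 and 203 RPM in WT to 101, 105 and 110.5 RPM in KO. Its log2 change was -0.99 ± 0.10 (SE, limma adjusted p = 0.000681), and both groups were tight, with coefficients of variation of 5.54% and 4.46%. Clec2h, a lectin-like molecule of gut epithelium that binds a receptor of the NKR-P1 family, was at 296, 341 and 266 RPM in WT and 731, 593 and 448 RPM in KO, a log2 change of 0.95 ± 0.20 (SE, limma adjusted p = 0.00592), or 0.59 without the length trend. Clec2d, whose product restrains natural killer cells through another receptor of that family, was at 47.3, 46.05 and 43.1 RPM in WT and 72.5, 62.8 and 55.9 RPM in KO, a log2 change of 0.48 ± 0.13 (SE, limma adjusted p = 0.0113). It is the only gene of the 38 whose direction turned under an alternative, the removal of the length trend already named.

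The other glycoproteins rose by less than or about a log2 change of 1. Cd55, which shields cells from complement, was at 45.2, 48.5 and 46.99 RPM in WT and 58.5, 75.9 and 68.4 RPM in KO, a log2 change of 0.52 ± 0.12 (SE, limma adjusted p = 0.00866). Cd83, a marker of mature dendritic cells that is also made elsewhere, was at 14.1, 15.4 and 14.4 RPM in WT and 23.1, 29.7 and 28.2 RPM in KO, a log2 change of 0.87 ± 0.13 (SE, limma adjusted p = 0.00221). Cd177, a glycoprotein best known from neutrophils, was at 17.6, 17.3 and 15.5 RPM in WT and 27.4, 34.8 and 29.7 RPM in KO, a log2 change of 0.86 ± 0.13 (SE, limma adjusted p = 0.00234). Cd244, a receptor of natural killer cells, was at 5.67, 4.41 and 5.16 RPM in WT and 6.36, 13.04 and 13.4 RPM in KO, a log2 change of 1.02 ± 0.30 (SE, limma adjusted p = 0.0153). KO replicate 1 of Cd244 was just above the highest WT value, and without KO replicate 2 its limma adjusted p was 0.0511.

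**Figure D3:**
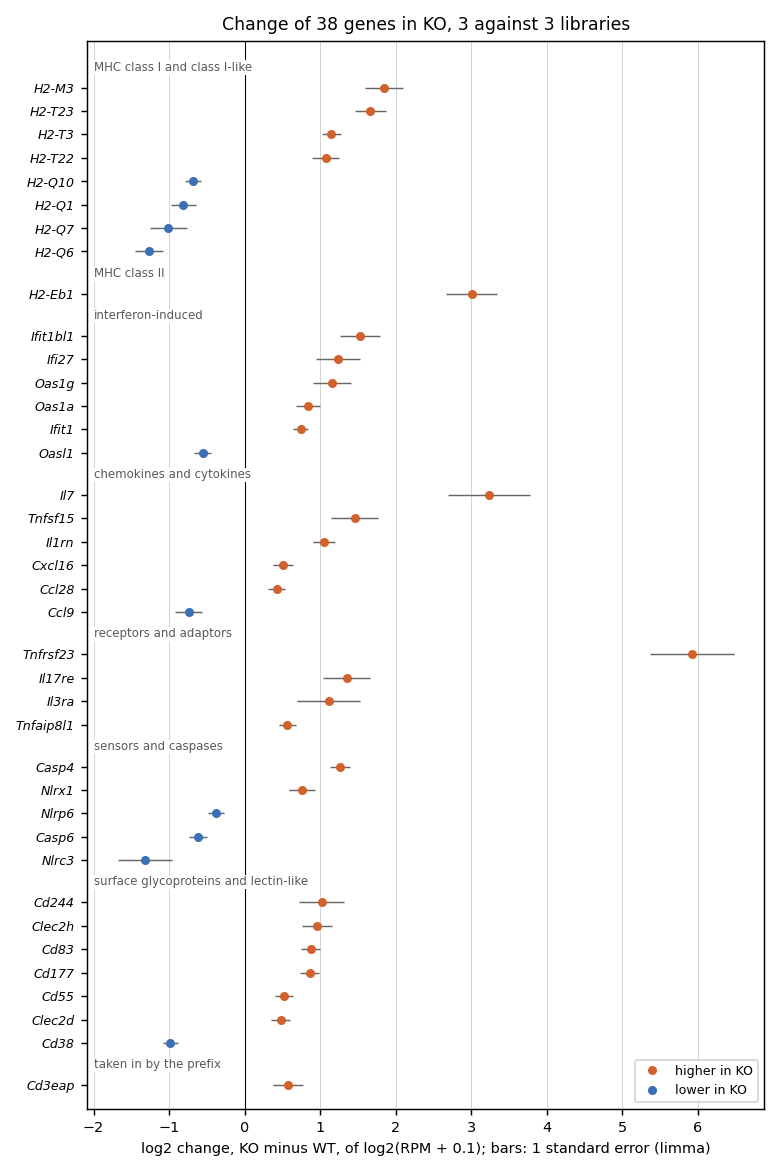
Log2 change (KO minus WT, of log2(RPM + 0.1)) of the 38 genes with 1 SE from limma, 3 libraries per group, by role. Receptors and adaptors all lie above 0, whereas class I genes and sensors fall on both sides, and Tnfrsf23 stands furthest out at 5.92.

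The KO libraries differed among themselves more than the WT libraries did, with a median coefficient of variation over the 38 genes of 14.8% in KO and 11.4% in WT, and of 13.4% and 8.34% over the table. Of the 28 genes higher in KO, 17 had their highest KO value in replicate 1 and 18 their lowest in replicate 3, and 15 (53.6%) did both with replicate 2 between, as did 43.8% of the 747 listed genes that were higher. Of the 10 lower genes none had this order, as did 5.79% of the 673 listed genes that were lower, and 4 had the reverse order, as did 401 of those 673. Il3ra, Il17re and H2-T23 were among those with this order, at 161%, 134% and 129% of their KO mean in replicate 1. Cd244 and Tnfrsf23 had replicate 1 lowest, at 58.2% and 77.8% of the KO mean. The difference between KO replicates 1 and 3 went with transcript length, with a Spearman rho across genes of -0.49 both over the 38 genes and over 1407 listed genes. The change from WT to KO went with length as well, with a rho of -0.34 over the 38 genes and -0.22 over the table. The genes share the same 6 libraries, and the part of transcript length in the changes was not tested beyond removal of the trend.

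**Figure D4:**
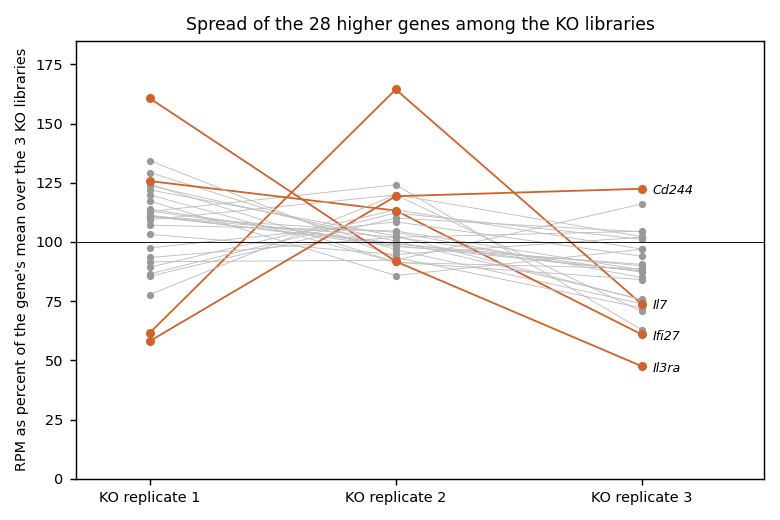
RPM of each of the 28 higher genes in the 3 KO libraries as a percentage of that gene's mean over them, with lines joining the points of 1 gene and no order among replicates implied. Most genes lie above 100% in KO replicate 1 and below it in KO replicate 3, whereas Cd244 is at 58.2% in replicate 1 and Il7 peaks in replicate 2.

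Some further genes of the same pathways were in the table, where 52.5% of all genes were called higher and 47.4% lower, so that a listed gene was nearly always called. Of 23 further genes of antigen processing, 1 was listed, the lysosomal protease gene Ctss, at 32.7, 40.6 and 35.6 RPM in WT and 83.2, 69.9 and 48.6 RPM in KO (log2 change 0.86; limma adjusted p = 0.00933). Of 47 further genes of interferon signalling and response, 4 were listed and all 4 were called higher in KO. Xaf1 rose by 1.92, the mono-ADP-ribosyltransferase genes Parp12 by 0.66 and Parp14 by 0.52, and the Schlafen gene Slfn2 by 4.03 on the log2 scale, the last from 0.699, 0.766 and 0 RPM in WT to 8.05, 8.30 and 4.27 RPM in KO. Of 53 further genes of the NF-kB and inflammasome pathways, 9 were listed, 6 called higher and 3 lower. Those higher were Relb (log2 change 0.42), Map3k8 (1.51), Gsdmd, which encodes the pore-forming gasdermin D (0.39), Nos2 (0.85), Duox2 (0.83) and Duoxa2 (1.02). Those lower were Chuk, a kinase of the IKK complex (-0.58), the adaptor gene Ticam1 (-0.39) and Tnip1, a restraint on NF-kB (-0.60). Genes of these lists outside the table were not analysed here.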

How the data were processed

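mRNA was measured in 6 organoid libraries, grouped by sample title. Per the submitters' processing notes and the study's methods, the authors trimmed reads with Trim Galore 0.4.2, mapped them to GRCm38 with HISAT2 2.0.3, kept unique mappings, counted over exons of merged transcripts in SeqMonk and selected genes with DESeq2. The deposited values are RPM on a linear scale, scaled by the authors to library depth. The deposited FDR column holds the authors' p-values corrected for multiple testing and was not used.

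All 1420 genes were tested by limma 3.58.1 in R 4.3.3 on log2(RPM + 0.1), two-sided, without covariates, with Benjamini-Hochberg adjustment over all of them. The deposited values are RPM, and no count model was fitted to the reads inferred from them. The pseudocount understates changes of low genes. Genes were joined with GENCODE M21 for exon lengths, and promoters came from RefSeq. Within each library 100% of values were whole multiples of a step, taken as 1 read. Counting intervals are exact (scipy 1.17.1) and cover counting error only. Every replicate pair differed by more than counting noise (chi-square of at least 15.5 per gene).

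Every one of the 38 genes is named, in full where its mean reached 1 RPM. The genes and lists were chosen with earlier results of these data known. Alternatives were a replicate block, filters, centring, a pseudocount of 1, an intensity trend, removal of a length trend, stricter thresholds and leaving out each library. Leaving out genes with shared sequence was added after seeing the data. Correlations of same-numbered libraries' deviations were -0.08, 0.09 and 0.06. No pairing by number was thus seen, which does not exclude one by litter or batch.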

Additional observations from a re-analysis of the deposited data

How the results depend on the processing

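The counts of 28 higher and 10 lower genes rest on a table the authors selected on these libraries, so their stability says nothing about an unselected search. With the replicate number as a block, 27 were higher and 10 lower, although the labels do not state that the numbers pair the samples. Testing only genes whose mean was not in the lowest quartile (25th percentile) kept 22 of the 38 genes in the test and left 15 higher, all 22 being called. A minimum log2 change of 1 left 16 higher and 3 lower. Leaving out each library in turn gave 25 to 28 higher and 9 to 10 lower. Removal of the length trend gave 24 higher and 10 lower, and an adjusted p under 0.01 gave 22 higher and 8 lower. Leaving out the 6 genes with over 20% of shared words, chosen after seeing the data, left 24 higher and 8 lower. Over 11 alternatives per gene, 400 of 418 values kept direction and call, 17 lost the call and 1 turned, Clec2d to -0.11 without the length trend. The lost calls fell on Cd3eap and Il3ra (7 alternatives each) and on Cd244, Nlrp6 and Cxcl16 (1 each), and the cause was not tested. Centring lowered all changes by 0.09, less than the smallest change of a higher gene, and gave 26 higher and 10 lower. Cd3eap and Il3ra then lost the call, with log2 changes of 0.48 and 1.02 (limma adjusted p = 0.0671 and 0.0564). Depth limits Il7, H2-Eb1 and Tnfrsf23, whose WT values rest on 6, 2 and 4 reads, and with a pseudocount of 1 their log2 changes were 1.38, 0.91 and 3.27.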
